A study of Mus musculus with 6 samples.

Results

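The genes described here mostly encode precursors of the cornified envelope, the cross-linked protein shell of stratified squamous epithelium. They were the gene symbols that begin with Lce or Sprr and a digit, plus Flg, Flg2, Hrnr, Rptn, Crnn, Ivl, Lor, Tchh, Tchhl1, Crct1, Krtdap, Cnfn and Ecm1. Of 41253 symbols with summed read counts, 49 met this rule, all had reads in at least 1 library, and 48 were abundant enough to test. Sprr4, with 6 reads over all 6 libraries, was the exception. The RNA came from oesophageal squamous cell carcinomas of C57BL/6 mice that had drunk water with the carcinogen 4NQO, which forms bulky DNA adducts, at a labelled 100 mg/mL from 6 weeks of age for 16 weeks. The mice were killed 12 weeks after that, or earlier on heavy weight loss, and the series' design text gives their age as 34 weeks. Libraries came from 3 mice labelled wild type (WT, Ptpro+/+) and 3 labelled Ptpro-KO (Ptpro-/-), a knockout label for the receptor-type tyrosine phosphatase gene Ptpro that the Ptpro reads of these libraries go against. The carcinogen is common to both labels, no tumour-free oesophagus was analysed here, and the labels do not say which part of Ptpro the allele lacks or in which cells.

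Keratinocytes that leave the basal layer stop dividing and make involucrin, loricrin, small proline-rich (Sprr) and late cornified envelope (Lce) proteins, which transglutaminases cross-link beneath the cell membrane. Proteins that join an S100-type calcium-binding domain to long repeats, such as filaggrin, repetin and cornulin, are made in the same cells, and most of these genes lie side by side in the epidermal differentiation complex. In the rodent oesophagus, whose lining cornifies, Sprr genes and the fused S100-type genes are part of normal differentiation.

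The 6 libraries held 25745240 to 39827467 reads. Ptpro itself ran against the labels, with 174, 9 and 67 reads in WT-labelled libraries and 1094, 1824 and 1921 in Ptpro-KO-labelled ones (log2 fold change 3.97, SE 0.85, edgeR adjusted p = 0.0617). Its levels were 5.05, 0.359 and 2.39 CPM against 30.3, 42.8 and 50.6 CPM, so every direction below is between libraries as labelled. CPM denotes counts scaled to library depth with TMM factors, and library values are given in the order of replicates 1, 2 and 3. Squamous epithelium was present in each library, as Krt5 and Krt14, keratins of basal squamous cells, stood at 2820 CPM or more in each. Markers of other tissues differed between libraries: summed over 6 skeletal muscle genes the level was 7808, 52.8 and 5434 CPM in WT-labelled libraries and 8195, 3393 and 68.1 CPM in Ptpro-KO-labelled ones. The sum of 5 stomach genes reached 14196 CPM in Ptpro-KO replicate 3, and that of 3 thyroid genes 781 CPM in Ptpro-KO replicate 2, while the stomach genes Pgc and Gkn2 had 0 reads in each library labelled WT. The part of these tissues in the results below was not tested.

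Most envelope transcripts were scarcer in Ptpro-KO-labelled libraries, while Ecm1, Crnn, Ivl, Flg, Flg2 and part of the Sprr2 family stood outside the trend. Of the 48 members tested, 12 fell, and 0 rose, at an adjusted p under 0.05 in edgeR's quasi-likelihood test. Among all 17663 genes tested, 2.29% fell and 1.81% rose. The 12 were Krtdap, Cnfn, Lce3b, Lce3c, Lce3d, Lce3e, Sprr1b, Sprr2g, Sprr2h, Sprr2j-ps, Sprr2k and Tchh. At an unadjusted p under 0.05, 32 members were lower and 2 higher, where 11.3% of all genes were lower and 13.7% higher. DESeq2 called 28 lower and 2 higher, where it called 8.37% of all genes lower and 9.52% higher.

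The log2 fold change was negative for 42 members (40 when scaled by library totals alone), against 46.7% of all genes, and its median was -1.29 over the members and 0.03 over all genes. In 24 members all 3 libraries labelled Ptpro-KO lay below all 3 labelled WT, a pattern seen in 15.7% of all genes. Ecm1 showed the reverse, seen in 16.8% of all genes, and 23 members overlapped. Together the 49 genes stood at 11873, 7998 and 9056 CPM in WT-labelled libraries and 7100, 3419 and 6249 CPM in Ptpro-KO-labelled ones. They took from 0.366% to 1.09% of a library's reads, with 95% Wilson intervals of at most 0.0034 percentage points on either side, which cover counting error only. Replicate 1 was the highest of its label for most of the 48 members, 34 for WT and 31 for Ptpro-KO. Replicate 2 was the lowest of its label for 30 members in each label.

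**Figure D1:**
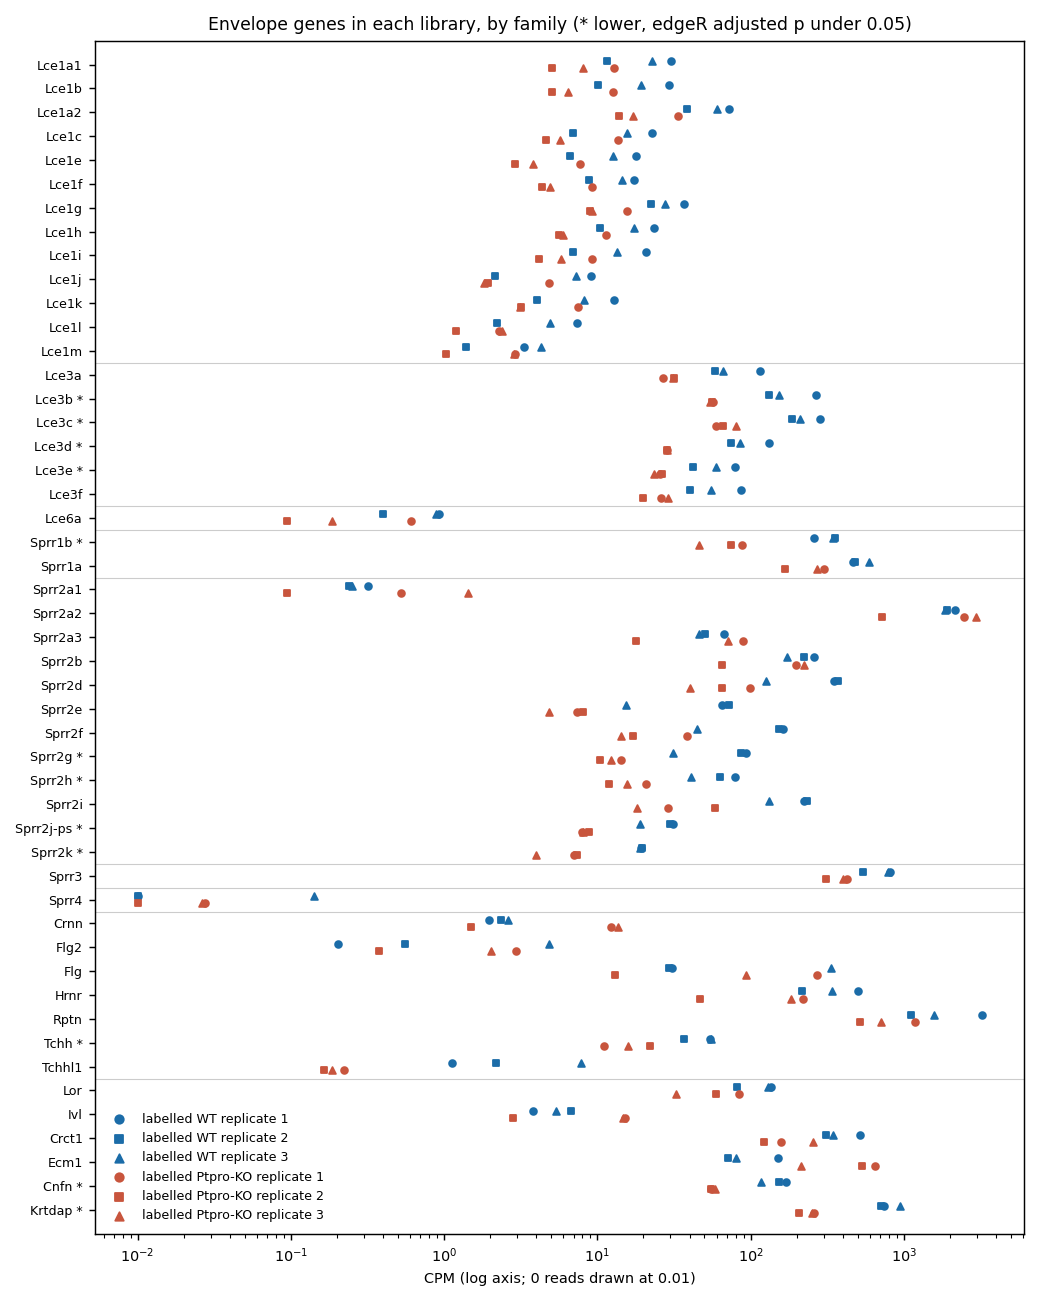
Level of each of the 49 envelope genes in the 6 libraries, in CPM on a log axis, grouped by family; each point is 1 library, blue for those labelled WT and red for those labelled Ptpro-KO, and an asterisk marks the 12 genes that fell. The red points of the Lce3 and Sprr1 genes and of Sprr2d to Sprr2k lie left of the blue ones, while Ecm1 lies the other way.

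The number of calls rested on all 6 libraries. With edgeR, 0 members were called when WT replicate 2 or 3 or Ptpro-KO replicate 1 or 2 was left out, and 4 (Krtdap, Lce3b, Lce3c and Lce3d) without WT replicate 1; in each of these fits 24 to 36 members were lower at an unadjusted p under 0.05, as were 8.15% to 10.7% of all genes. Of all genes, 0 passed when replicate 2 of either label or replicate 3 of the label WT was absent. Without Ptpro-KO replicate 1, 52 of 18004 genes were called lower and 41 higher, though 0 members were. Without WT replicate 1, 82 of 18278 genes were called lower and 50 higher. Without Ptpro-KO replicate 3, which carried the stomach transcripts, 5 members were called lower (Cnfn, Krtdap, Lce3c, Sprr1b and Sprr2k) and Ecm1 was called higher. In that fit 243 of 18017 genes were called lower and 253 higher.

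Krtdap encodes a small secreted protein of differentiating keratinocytes. With the Sprr2a2 reads taken over 3541 bases, Krtdap was the most abundant member per transcript length in WT-labelled libraries. Its level was 747, 708 and 948 CPM there and 259, 209 and 252 CPM in Ptpro-KO-labelled ones, or 801 ± 129 against 240.2 ± 27.5 (SD, n = 3 each). All 3 libraries labelled Ptpro-KO were low, within a narrow range, and the groups were far apart. Krtdap fell by 1.74 on the log2 scale (SE 0.17, edgeR adjusted p = 0.0132). It lies outside the complex, on chromosome 7 (30787896 to 30791097, plus strand, GRCm38, the mm10 assembly). Cnfn, the gene of cornifelin, lies on the same chromosome from 25367620 to 25369724. Cnfn stood at 171, 154 and 117 CPM against 55.4, 55.6 and 58.4 CPM. The libraries labelled Ptpro-KO were almost equal and all below those labelled WT, a fall of 1.38 (SE 0.16, edgeR adjusted p = 0.0183).

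Krtdap, Cnfn and Lce3c had the smallest p-values of the members, so the 250 bases before their RefSeq start (GRCm38.p6) are shown, from chr7:30787655-30787904 on the plus strand, chr7:25369725-25369974 on the minus strand and chr3:92944236-92944485 on the plus strand. Capitals mark a match to TGANTCA, a loose form of the AP-1 core with any base at N, on either strand.
Krtdap: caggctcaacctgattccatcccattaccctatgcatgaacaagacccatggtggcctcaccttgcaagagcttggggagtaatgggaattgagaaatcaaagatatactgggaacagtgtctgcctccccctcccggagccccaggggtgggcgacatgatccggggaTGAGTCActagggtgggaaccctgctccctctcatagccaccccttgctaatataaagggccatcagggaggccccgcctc
Cnfn: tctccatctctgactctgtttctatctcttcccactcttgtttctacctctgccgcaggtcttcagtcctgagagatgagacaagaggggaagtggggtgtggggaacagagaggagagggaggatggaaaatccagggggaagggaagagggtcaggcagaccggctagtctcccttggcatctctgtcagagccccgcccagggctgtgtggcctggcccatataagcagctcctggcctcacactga
Lce3c: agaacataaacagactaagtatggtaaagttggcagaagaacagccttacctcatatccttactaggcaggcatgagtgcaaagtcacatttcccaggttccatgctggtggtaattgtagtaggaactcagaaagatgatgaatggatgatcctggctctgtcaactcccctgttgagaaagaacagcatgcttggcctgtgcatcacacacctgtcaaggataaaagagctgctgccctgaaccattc
The Krtdap window held 1 such match, starting 81 bases before the start, and those of Cnfn and Lce3c held 0. AP-1 proteins are dimers of Jun and Fos type factors that act at many keratinocyte genes.

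RefSeq gave a window for 45 members and for Lce1d, whose reads are pooled with Lce1a2 in the deposited files, and none for Sprr2g, Crct1, Sprr2j-ps and Lce1f. TGANTCA occurred in 18 of these 46 windows (39.1%) and in 6.9% of 27025 windows of the same length across mouse genes. It was present in 7 of 10 Sprr2 windows and in 0 of 13 Lce1 and 0 of 6 Lce3 windows. Windows of near copies are alike, so the 46 are not independent of each other. CACCC, a core of Klf sites, occurred in 43.5% of the member windows and 51.3% of all, and GGAA, the Ets core, in 100.0% and 93.4%. Both strands were searched for each motif. A match is a string of letters in these windows and no measurement of binding.

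Small proline-rich proteins cross-bridge the larger envelope proteins. Sprr1b had the largest fall of the pair Sprr1a and Sprr1b, from 259, 356 and 345 CPM to 88.5, 74.8 and 46.0 CPM. Every library labelled Ptpro-KO was below every one labelled WT, and Sprr1b fell by 2.2 (SE 0.28, edgeR adjusted p = 0.0245). Sprr1a stood at 465, 482 and 594 CPM against 302, 167 and 269 CPM, again without overlap, with a log2 fold change of -1.06 (SE 0.25, edgeR adjusted p = 0.0736) that did not pass. Of the reads on the pair, Sprr1b took 35.8%, 42.5% and 36.8% in WT-labelled libraries and 22.7%, 30.9% and 14.6% in Ptpro-KO-labelled ones (95% Wilson intervals of at most 0.893 percentage points on either side). The balance within the pair therefore also differed between the labels without overlap. Sprr3, the member of the family most typical of oesophageal epithelium, stood at 814, 541 and 787 CPM against 428, 310.3 and 399.6 CPM. Its groups did not overlap either, but its log2 fold change of -0.91 (SE 0.22) had an edgeR adjusted p of 0.0738.

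The Sprr2 family holds 12 members in a row on chromosome 3, and it divided by position. The grouping into Sprr2a1 to Sprr2b and Sprr2d to Sprr2k was made after the values were seen. The genes are near copies of each other, which bears on how far their reads can be told apart, so the first 72 coding bases (GENCODE M21, GRCm38, plus strand of chromosome 3) are shown for Sprr2h, at chr3:92386632-92386703, and for 5 others. Capitals mark the bases that differ from Sprr2h.
Sprr2h: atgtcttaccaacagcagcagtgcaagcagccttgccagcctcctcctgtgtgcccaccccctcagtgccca
Sprr2a2: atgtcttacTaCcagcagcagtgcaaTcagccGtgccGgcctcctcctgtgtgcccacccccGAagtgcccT
Sprr2b: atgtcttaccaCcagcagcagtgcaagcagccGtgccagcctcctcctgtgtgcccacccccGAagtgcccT
Sprr2d: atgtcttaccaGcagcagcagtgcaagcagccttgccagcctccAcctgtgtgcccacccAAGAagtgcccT
Sprr2e: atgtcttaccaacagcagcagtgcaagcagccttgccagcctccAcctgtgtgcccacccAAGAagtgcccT
Sprr2k: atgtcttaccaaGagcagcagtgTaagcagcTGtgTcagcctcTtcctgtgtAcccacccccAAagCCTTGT
Sprr2a1 was identical to Sprr2a2 over this stretch, and Sprr2e to Sprr2i. Along whole transcripts, 96.5% of the 50-base stretches of Sprr2a2 and 96.3% of those of Sprr2a1 also occur in another gene, against 47.4% for Sprr2a3, 13.7% for Sprr2b and 0% to 12.5% for Sprr2d to Sprr2k. The files list 4 to 54 reads for Sprr2a1 in Ptpro-KO-labelled libraries and 30878 to 112025 for Sprr2a2, so these copies are best read as 1.

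All 8 genes from Sprr2d to Sprr2k had every library labelled Ptpro-KO below every one labelled WT, and 4 of them fell. Over all genes tested, 15.7% lay below without overlap and 2.29% fell. Sprr2g stood at 93.0, 86.2 and 31.2 CPM against 14.2, 10.4 and 12.2 CPM, a fall of 2.52 (SE 0.43, edgeR adjusted p = 0.041). Sprr2h stood at 78.7, 62.9 and 41.2 CPM against 20.7, 11.9 and 15.6 CPM, a fall of 1.92 (SE 0.31, edgeR adjusted p = 0.0357). In both genes WT replicate 3 was the lowest of its label, as it was for 11 of the 12 Sprr2 members. Sprr2k, at 19.4, 19.5 and 18.9 CPM against 7.09, 7.39 and 3.98 CPM, fell by 1.65 (SE 0.26, edgeR adjusted p = 0.0355). Sprr2j-ps stood at 31.1, 29.7 and 18.9 CPM against 7.92, 8.82 and 8.04 CPM and fell by 1.68 (SE 0.22, edgeR adjusted p = 0.0253). Its symbol marks a pseudogene, but GENCODE M21 lists it as protein coding and lists Sprr2g as a polymorphic pseudogene. The libraries labelled Ptpro-KO were close together for Sprr2g and Sprr2j-ps.

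The 4 others in this stretch had larger SEs, from 0.48 to 0.62. Sprr2i stood at 225, 232 and 132 CPM against 29.0, 58.3 and 18.2 CPM (log2 fold change -2.48, SE 0.48, edgeR adjusted p = 0.0506). Sprr2d stood at 348, 371 and 126 CPM against 99.0, 64.9 and 40.3 CPM (log2 fold change -2.05, SE 0.52, edgeR adjusted p = 0.0835). Sprr2e and Sprr2f had log2 fold changes of -2.91 and -2.37. None of these 4 passed the test, and their groups were apart in every case. Summed, Sprr2d to Sprr2k stood at 1023, 1027 and 428 CPM against 224, 187 and 117 CPM.

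Sprr2a1 to Sprr2b gave another picture, with 0 of 4 called and groups that overlapped for each. Sprr2a2, with the most reads of all members in Ptpro-KO-labelled libraries, stood at 2150, 1907 and 1870 CPM against 2487, 724 and 2952 CPM. Its highest and its lowest library both carried the label Ptpro-KO, and replicate 2 of that label was the low one. The log2 fold change of 0.06 (SE 0.49, edgeR adjusted p = 0.959) had no stable sign: it was -0.17 with limma-voom and -0.3 without Ptpro-KO replicate 3. Sprr2b, at 259, 224 and 172 CPM against 199, 65.3 and 222 CPM, showed the same low replicate 2 (log2 fold change -0.43, SE 0.46, edgeR adjusted p = 0.61). Summed, the 4 genes took 70.8%, 68.0% and 83.0% of Sprr2 reads in WT-labelled libraries and 92.5%, 81.2% and 96.5% in Ptpro-KO-labelled ones, shares that overlapped (95% Wilson intervals of at most 0.372 percentage points on either side).

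**Figure D2:**
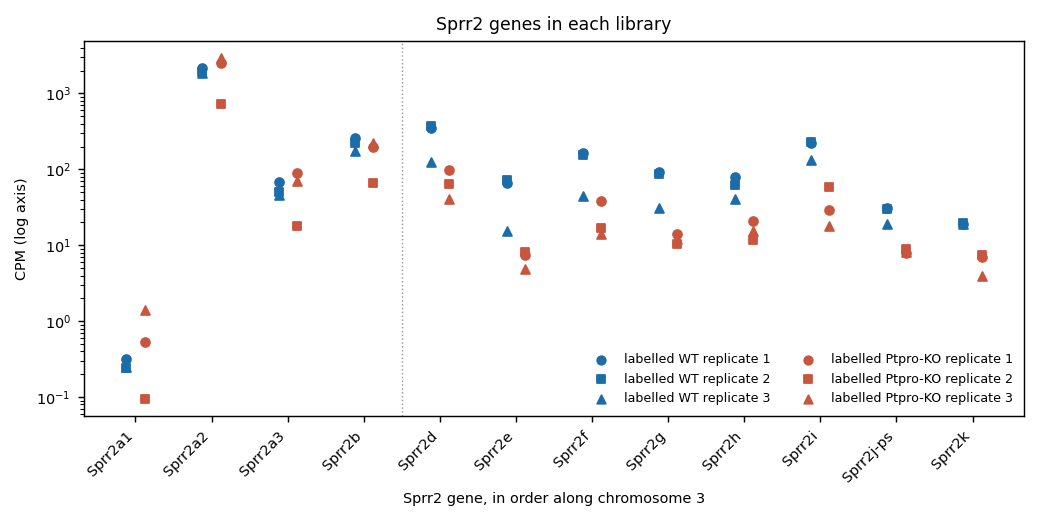
Level of the 12 Sprr2 genes in the 6 libraries, in CPM on a log axis, in their order along chromosome 3; each point is 1 library and the dotted line separates Sprr2b from Sprr2d. Right of the line the red points (labelled Ptpro-KO) lie below the blue ones in all 8 genes, and left of it the groups overlap.

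The AP-1 matches of the Sprr2 windows lay at like distances, 182 to 198 bases before the start, and are printed with 7 bases on either side to show how alike the copies are. They are on the plus strand of chromosome 3 (RefSeq, GRCm38.p6), the first from Sprr2b at chr3:92316503-92316523 and the last from Sprr2k at chr3:92432379-92432399.
Sprr2b: ggactctTGAGTCAcaagact
Sprr2d: tgctcacTGAGTCAcaggtct
Sprr2e: tgctcacTGAGTCAcaggtct
Sprr2f: tgaatatTGAGTCAcagtgct
Sprr2h: tggtctcTGAGTCActgcact
Sprr2i: ggctcacTGAGTCAcaggact
Sprr2k: tgtcctcTGAGTCActgtact
For Sprr2k the farther of its 2 matches is printed. Sprr2b, which overlapped between labels, and Sprr2h and Sprr2k, which fell, share the same 7 letters. The windows of Sprr2a1, Sprr2a2 and Sprr2a3 held no match, but they end farther from the coding start than those of the other Sprr2 genes. For Sprr2a2 the window ends at 92250646 and coding starts at 92253905, against 92316704 and 92317449 for Sprr2b. The windows are therefore not matched in position, and sequence nearer the Sprr2a coding starts was not searched.

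Late cornified envelope proteins are added last, at the inner face of the envelope. The 6 Lce3 genes were the most uniform family: all had the libraries labelled Ptpro-KO below those labelled WT, and 4 fell. The shares over all genes tested were 15.7% and 2.29%. Lce3c stood at 286, 187 and 209 CPM against 59.6, 65.8 and 80.2 CPM and fell by 1.73 (SE 0.21, edgeR adjusted p = 0.021). Lce3d, at 132, 74.4 and 85.7 CPM against 28.6, 28.6 and 28.4 CPM, fell by 1.77 (SE 0.23, edgeR adjusted p = 0.0248). The 3 libraries labelled Ptpro-KO differed by only a factor of 1.01 for Lce3d, while WT replicate 1 was highest of its label in all 6 genes. Lce3b stood at 268, 131 and 153 CPM against 56.9, 56.4 and 54.6 CPM and fell by 1.72 (SE 0.28, edgeR adjusted p = 0.0368). Lce3e, at 79.1, 42.0 and 59.4 CPM against 25.7, 26.3 and 23.5 CPM, fell by 1.26 (SE 0.24, edgeR adjusted p = 0.047). Lce3a and Lce3f had log2 fold changes of -1.42 and -1.27 (edgeR adjusted p = 0.0517 and 0.0782). From 35.7% to 49.3% of the 50-base stretches of Lce3c, Lce3d, Lce3e and Lce3f occur in another gene, so reads may be divided among these copies. As 1 feature, the family stood at 968, 533 and 628 CPM against 224, 228 and 247 CPM.

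Lce1 genes were rarer and less clearly apart. All 13 had a negative log2 fold change, from -1.41 to -0.41 with a median of -1.16, but 0 were called by edgeR, 8 had an unadjusted p under 0.05 (11.3% of all genes were lower at that p), and DESeq2 called 5. Only Lce1a2 and Lce1g had groups without overlap, where 15.7% of all genes lay below in this way. Summed, the family stood at 304, 132 and 228 CPM against 144, 62.0 and 77.3 CPM. WT replicate 2 was the lowest of its label in all 13 and Ptpro-KO replicate 1 the highest of its label in 12, and these 2 libraries are where the groups met. Lce6a, at under 1 CPM in each library, had a log2 fold change of -1.34 (SE 0.72).

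Loricrin and involucrin, the classical major precursors, differed from each other. Lor, the gene of loricrin, stood at 137, 81.0 and 129 CPM against 83.9, 59.3 and 32.4 CPM, overlapping groups with a log2 fold change of -0.98 (SE 0.38, edgeR adjusted p = 0.182). Ivl, the gene of involucrin, was sparse, at 3.80, 6.74 and 5.38 CPM against 15.2, 2.84 and 14.7 CPM. Its replicates 1 and 3 labelled Ptpro-KO were above all those labelled WT and its replicate 2 below them (log2 fold change 1.04, SE 0.63, edgeR adjusted p = 0.365).

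**Figure D3:**
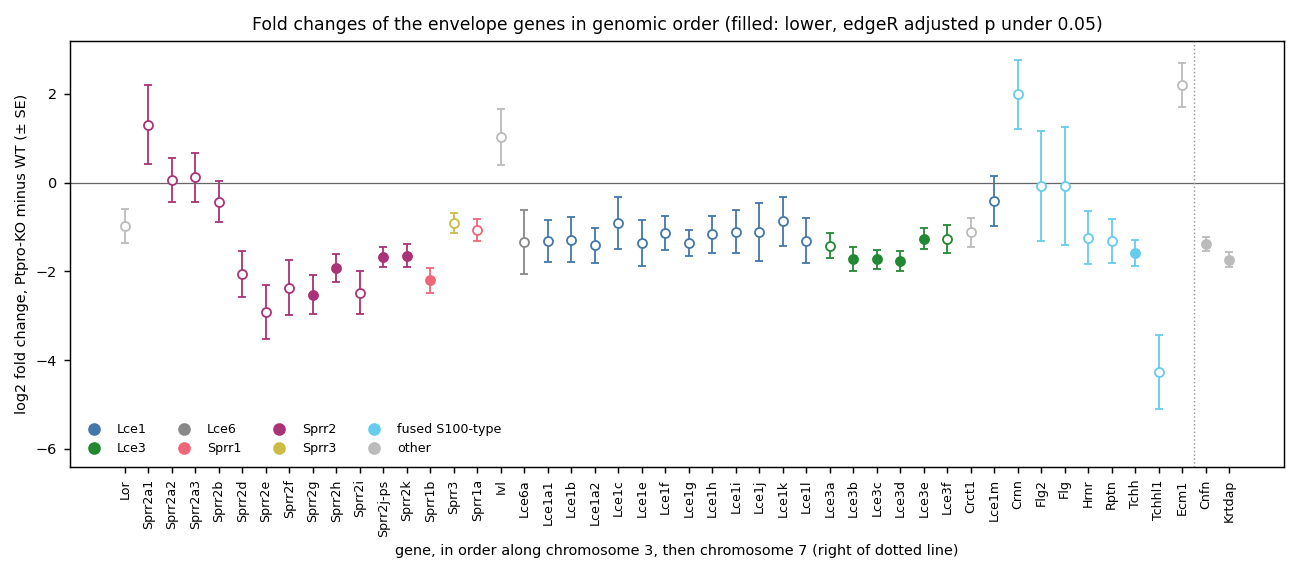
log2 fold change of the 48 tested envelope genes (libraries labelled Ptpro-KO minus labelled WT, with SE), in their order along chromosome 3 and then chromosome 7; filled points are the 12 genes that fell. The values from Sprr2d to Sprr1b and across Lce1 and Lce3 lie below 0, Sprr2a2 and Sprr2a3 lie near it, and Ivl, Crnn and Ecm1 lie above it.

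The fused S100-type proteins carry long repeats that bundle keratin filaments or join the envelope. Tchh, which encodes trichohyalin of hair follicles and tongue papillae, was the 1 of 7 that fell: it stood at 54.7, 37.1 and 54.9 CPM against 11.02, 22.2 and 16.0 CPM. The groups were apart and the fall was 1.58 (SE 0.3, edgeR adjusted p = 0.0484). Tchhl1, its neighbour, was rare, at 1.13, 2.19 and 7.80 CPM against 0.221, 0.164 and 0.185 CPM. That is 8, 7 and 7 reads in Ptpro-KO-labelled libraries, and its log2 fold change of -4.26 (SE 0.83, edgeR adjusted p = 0.0508), the lowest of the members, leaned on WT replicate 3.

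Rptn, the gene of repetin, and Hrnr, that of hornerin, were variable and high in CPM, which is not scaled to transcript length. Per length, Rptn ranked 6 among the 49 members in WT-labelled libraries and 8 in Ptpro-KO-labelled ones, and Hrnr 28 and 26. Rptn stood at 3248, 1122 and 1583 CPM against 1181, 514 and 709 CPM, so that WT replicate 2 lay below Ptpro-KO replicate 1 (log2 fold change -1.31, SE 0.49, edgeR adjusted p = 0.172). Hrnr stood at 501, 217 and 342 CPM against 219, 47.1 and 184 CPM, with the same 2 libraries meeting (log2 fold change -1.24, SE 0.6, edgeR adjusted p = 0.27). Ptpro-KO replicate 2 was the lowest library for 6 of the 7 fused S100-type genes within its label.

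Flg, the gene of filaggrin, varied within labels rather than between them. It stood at 30.5, 29.5 and 337 CPM against 271.6, 13.1 and 93.2 CPM, a range of 11.4-fold within the label WT and 20.7-fold within Ptpro-KO. Flg2 did likewise, at 0.203, 0.558 and 4.84 CPM against 2.93, 0.375 and 2.03 CPM. Krt1, a keratin of suprabasal epidermis that is no member, was high in the same 3 libraries: 19.5, 24.5 and 254 CPM against 129.7, 2.89 and 163 CPM. Its partner Krt10 followed only in part, at 56.8, 43.4 and 160.7 CPM against 73.5, 4.08 and 35.8 CPM, so that Ptpro-KO replicate 3 lay below all those labelled WT. For Flg the log2 fold change was -0.07 (SE 1.33, edgeR adjusted p = 0.981), and it turned to 2.06 without WT replicate 3 and 0.04 when scaled by library totals alone. Crnn, the gene of cornulin, which is abundant in normal oesophagus, was sparse: 1.97, 2.35 and 2.60 CPM against 12.3, 1.501 and 13.6 CPM. As for Ivl, replicates 1 and 3 labelled Ptpro-KO were high and replicate 2 low (log2 fold change 1.99, SE 0.77, edgeR adjusted p = 0.182). DESeq2 called Crnn higher.

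**Figure D4:**
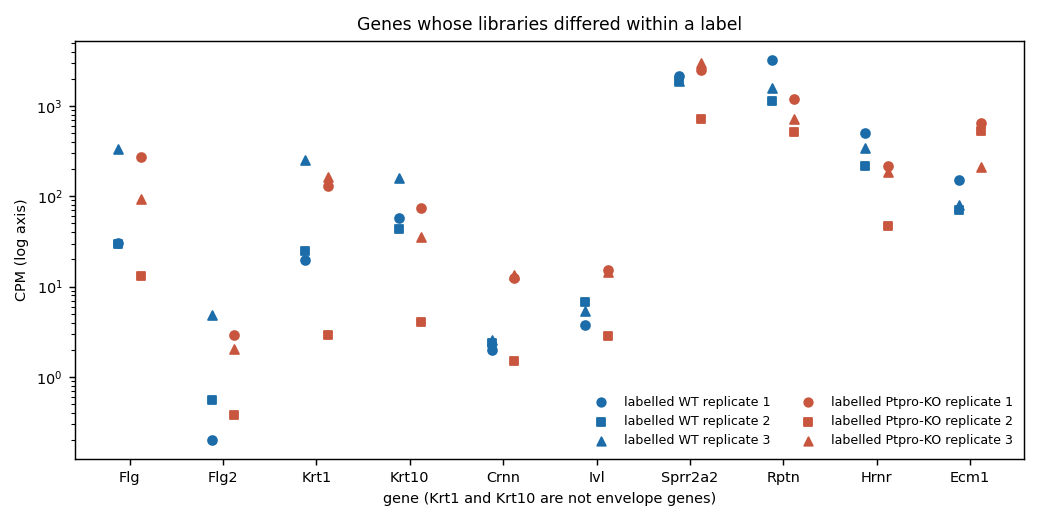
Level of 8 envelope genes and of the suprabasal keratins Krt1 and Krt10 in the 6 libraries, in CPM on a log axis; each point is 1 library. Flg, Flg2 and Krt1 are high in WT replicate 3 and in Ptpro-KO replicates 1 and 3, and Crnn, Ivl and Sprr2a2 are lowest in Ptpro-KO replicate 2.

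Ecm1, which encodes a secreted glycoprotein of differentiating keratinocytes and other cells, was the 1 member with all libraries labelled Ptpro-KO above those labelled WT. It lies on chromosome 3 from 95734147 to 95739569, outside the 1.39 Mb that hold the 46 other members of that chromosome (92080271 to 93471980). Ecm1 stood at 151, 70.9 and 80.7 CPM against 645, 534 and 212 CPM, or 100.8 ± 43.6 against 464 ± 225 (SD, n = 3 each). Replicate 3 was the lowest of the label Ptpro-KO and still above WT replicate 1. The log2 fold change of 2.2 (SE 0.5) had an edgeR adjusted p of 0.0701, and it passed with DESeq2, with library totals as the scaling and without Ptpro-KO replicate 3. Crct1, a cysteine-rich gene of the complex, went the other way at 515, 313 and 343 CPM against 158, 123 and 257 CPM. Its groups were apart (log2 fold change -1.12, SE 0.33, edgeR adjusted p = 0.113).

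The order of the members per transcript length changed accordingly. In mean summed RPKM (reads relative to transcript length and library total), the libraries labelled WT were led by Krtdap at 1664 ± 273, ahead of Sprr1a (605 ± 89.6), Sprr3 (553 ± 105), Sprr2a2 (529 ± 26.5) and Crct1 (514 ± 127; SD, n = 3 each). The last 4 lie within each other's spread. In those labelled Ptpro-KO, Sprr2a2 came first at 605 ± 345, then Krtdap (551 ± 51.7), Sprr3 (325 ± 45.9) and Sprr1a (319 ± 85.2). Sprr2a2 and Krtdap were not apart there, given the spread of Sprr2a2. Ecm1 moved from rank 25 to rank 5. The Sprr2a2 reads are listed on a transcript of 3541 bases, where another listed transcript has 722. The RPKM of Sprr2a2, and its rank below Krtdap in WT-labelled libraries, depend on that choice.

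Genes that build and modify the envelope were mostly lower as well. The list was chosen with earlier results of these data known. Among all genes tested, 2.29% fell, 1.81% rose and 46.7% had a negative log2 fold change. Of the 29 listed genes tested, 19 fell, 0 rose and 28 had a negative log2 fold change, with a median of -1.39. They included Tgm1, the transglutaminase of keratinocytes, from 609, 545 and 398 CPM to 258, 167 and 197 CPM (a fall of 1.32, SE 0.23, edgeR adjusted p = 0.0432). Genes of the lipid envelope fell as well, among them the lipid transporter gene Abca12 and the ceramide synthase gene Cers3, by 1.6 and 1.39 (edgeR adjusted p = 0.0125 for both). Cers3 stood at 220.1, 215 and 222 CPM against 92.6, 75.8 and 83.0 CPM; the libraries of each label were close together. Spink5, an inhibitor of desquamation proteases, fell by 2.53 and the protease inhibitor genes Csta1 and Cst6 by 2.58 and 1.52, while the inhibitor gene Cstb, at a log2 fold change of -0.51, did not pass. None of the protease genes on the list passed: Klk7, Asprv1, Casp14, Klk5, Prss8 and St14 had log2 fold changes of -1.86, -1.1, -0.8, -0.74, -0.13 and 0.45. Klk7 and Casp14 were lower, and St14 higher, without overlap between the labels. Tgm3, the transglutaminase of the oesophageal upper layers, stood at 1772, 1477 and 1330 CPM against 303, 547 and 73.4 CPM, apart but not called (log2 fold change -2.31, SE 0.68, edgeR adjusted p = 0.112).

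Among 30 regulators of these genes, 4 fell and 1 rose, with a median log2 fold change of -0.53. Of all genes tested, 2.29% fell and 1.81% rose. Ovol1, a zinc finger factor that promotes exit from the cell cycle, fell by 1.67 (SE 0.19), and Grhl1, Zfp750 and Hopx fell by 0.85, 0.87 and 1.07 (edgeR adjusted p from 0.0173 to 0.0464). Ahr, the aryl hydrocarbon receptor gene, rose from 33.8, 29.0 and 34.4 CPM to 80.7, 76.0 and 66.8 CPM (log2 fold change 1.2, SE 0.12, edgeR adjusted p = 0.0138). Klf4, at a log2 fold change of -0.36, and the AP-1 genes Fosl1, Jun, Junb and Jund, at -1.31, -0.47, -0.21 and -0.08, did not pass (edgeR adjusted p = 0.174 for Fosl1). Among the 19 tested other genes in or near the complex, 4 fell (S100a7a, S100a14, Pglyrp3 and Them5) and 0 rose, with a median of -0.64. S100a8 and S100a9, which keratinocytes and neutrophils both make, had log2 fold changes of -2.27 and -1.95 and did not pass. With edgeR, 0 genes of these 3 lists were called when replicate 2 of either label or WT replicate 3 was left out.

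Markers of basal squamous cells were also scarcer in Ptpro-KO-labelled libraries. The sum over Krt5, Krt14, Krt15, Trp63, Dst, Col17a1, Itga6 and Itgb4 was 23158, 31376 and 27908 CPM against 13564, 10834 and 12870 CPM. All 8 had negative log2 fold changes, and Krt5 and Krt14 fell. Of 6 suprabasal genes of the oesophagus, Endou fell by 2.22, and Tgm3, Krt13 and Krt4 had log2 fold changes of -2.31, -1.33 and -0.97. Emp1 and Mal, at 1.73 and 0.56, were above the WT-labelled libraries without overlap, and the sum of the 6 overlapped, at 29075, 12325 and 16400 CPM against 9974, 12490 and 3990 CPM. Over the same libraries, 5 keratins and adhesion genes of simple epithelium summed to 37.8 to 83.7 CPM in those labelled WT and 1055 to 2116 CPM in Ptpro-KO-labelled ones. Of these 5, 4 rose. The 6 fibroblast genes, of which Col1a1 and Col1a2 rose, summed to 345 to 1858 CPM and 2924 to 4614 CPM. The 4 macrophage genes found in the files summed to 50.1 to 189 CPM and 360 to 730 CPM. All 4 were higher without overlap, as were 16.8% of all genes, and 0 passed. The part of these cells in the falls above was not tested. In bulk tissue fewer squamous cells and less RNA per cell cannot be told apart.

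Relative to the basal markers, the labels overlapped for most members. This scale moves every gene up in Ptpro-KO-labelled libraries, whose basal sum is lower: on it 80.1% of all genes tested lay above the WT-labelled libraries without overlap and 0.702% lay below. Krt14 (mean 12953 CPM labelled WT, 4880 labelled Ptpro-KO) and Krt5 (7507 and 3240) were the largest terms of basal sums of 27481 and 12423. Their log2 fold changes, -1.41 and -1.21, were the lowest of the 8 markers, the others running from -1.11 to -0.3. Ratios to single markers were not taken. The 49 genes together stood at 51.3, 25.5 and 32.5 CPM per 100 CPM of basal markers in WT-labelled libraries and 52.4, 31.6 and 48.6 in Ptpro-KO-labelled ones, so that the groups overlapped. Of the 12 genes that fell, 9 overlapped on this scale. The other 3 were Krtdap (3.23, 2.26 and 3.40 against 1.91, 1.93 and 1.96), Sprr1b (1.12, 1.14 and 1.24 against 0.652, 0.690 and 0.357) and Sprr2g (0.401, 0.275 and 0.112 against 0.105, 0.0955 and 0.0948). Over all 48 tested members, 4 lay below without overlap, the fourth being Tchhl1, and 3 lay above: Ecm1, Crnn and Ivl. Ecm1 stood at 0.651, 0.226 and 0.289 against 4.75, 4.93 and 1.65 CPM per 100 CPM of basal markers. These ratios are given as values without a test.

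**Figure D5:**
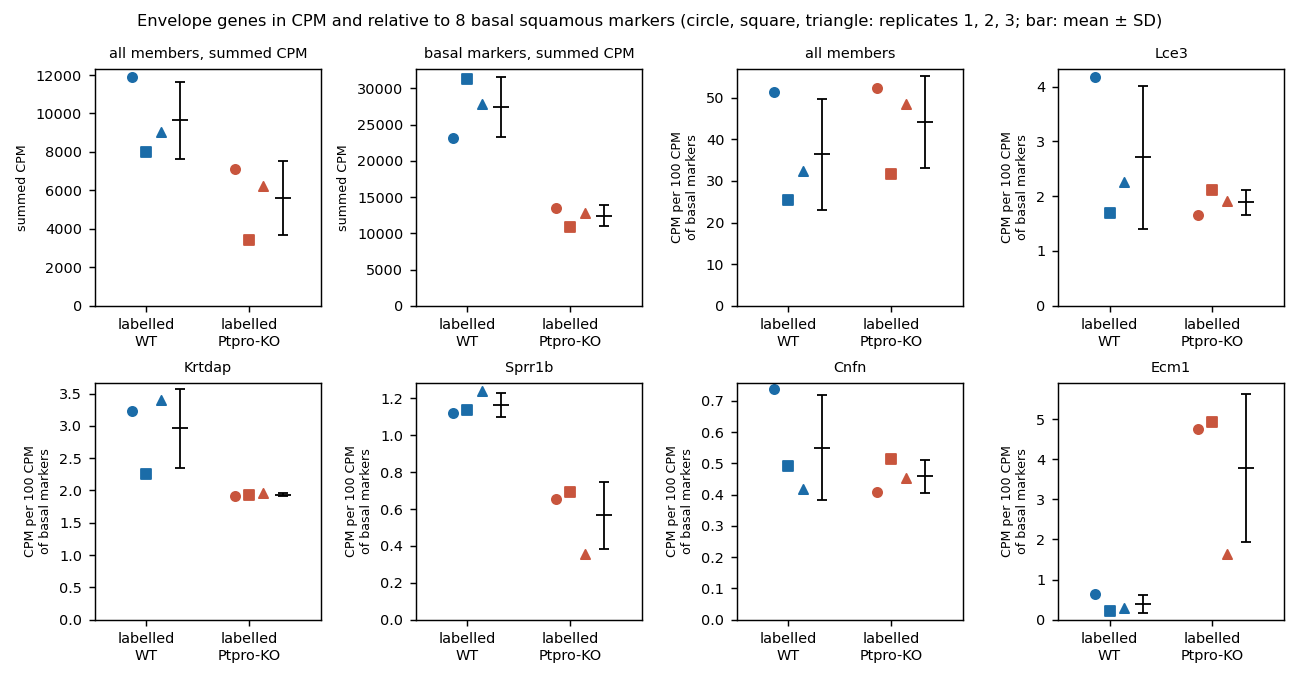
The first 2 panels show the summed CPM of the 49 envelope genes and of 8 basal squamous markers, and the other 6 show envelope genes as CPM per 100 CPM of those markers; symbols are single libraries (circle, square and triangle for replicates 1, 2 and 3) and bars the mean ± SD (n = 3 per label). Both sums are lower in Ptpro-KO-labelled libraries, whereas of the ratios Krtdap and Sprr1b stay lower without overlap and Ecm1 stays higher.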

How the data were processed

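Whole read counts per Ensembl transcript, with RPKM, were deposited by the authors for each of 6 libraries. The submitters' processing notes name Bowtie 0.12.2 and the build mm10. How reads shared by near-identical genes were assigned, the read length and strand are not stated there. FPKM values from a second table of the authors, deposited for the whole series, served only as an alternative, and 2 further columns of it were not used. RNA was total RNA, checked for integrity and treated with DNase, per the labels' protocols. A label tag gives an age of week 6 and the design text 34 weeks.

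Counts were summed per symbol, and 0 reads lacked a gene name. The edgeR filter filterByExpr (a minimum of 10 counts in 3 libraries, adjusted for depth, and 15 over all) came first. TMM scaling and the quasi-likelihood test followed (edgeR 4.0.16, R 4.3.3), for labelled Ptpro-KO minus labelled WT, with Benjamini-Hochberg adjustment over 17663 genes and a threshold of 0.05. Each SE is the log2 fold change over the root of F. RPKM was summed over the transcripts of a gene. On counts simulated from these libraries, the test found 39 of 100 genes given a 4-fold change and 1 of 100 given a 2-fold change, and 5 calls were false. Alternatives were DESeq2 1.42.0, limma-voom, limma 3.58.1 on FPKM (as log2 after adding 1 or 0.1), different filters and scalings, 1 transcript per gene, paralog families summed, a replicate block and leaving out each library.

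The members and gene lists were chosen with earlier results of these data known. Values in all libraries are given for members that passed, members with a mean of at least 100 CPM, and members whose highest library is at least 10 times the median library and holds at least 100 CPM. Tchhl1, Flg2, Ivl, Crnn, Lor and genes of other lists were chosen after their values were seen. The common biological coefficient of variation was 0.4, so the spread between mice limits the precision of all but the rarest members. Proteins are not shown, as their sequences were not used here.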

Additional observations from a re-analysis of the deposited data

How the results depend on the processing

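The number of members called lower was 12 with edgeR and 10 to 16 with limma-voom, limma on FPKM, the other scalings, the other filters and 1 transcript per gene. It was 28 with DESeq2, which shared all 12, 5 of 19 features when paralog families were summed (Cnfn, Krtdap, Tchh and the Lce3 and Sprr1 families), and 0 to 5 when 1 library was left out. Members called higher were 0 with edgeR, 2 with DESeq2 (Ecm1 and Crnn), 1 with library totals (Ecm1) and 0 to 1 when 1 library was left out. Envelope processing genes numbered 19 with edgeR and 0 to 14 with 1 library left out. Regulators were 5 with edgeR, 15 with DESeq2 and 0 to 5 with 1 library left out. Neighbouring genes were 4 with edgeR, 10 with DESeq2 and 0 to 2 with 1 library left out. DESeq2 called 8.37% of all genes lower and 9.52% higher. When WT replicate 2, WT replicate 3 or replicate 2 of Ptpro-KO was left out, 0 of all genes passed in edgeR, where 3369, 3078 and 4363 had an unadjusted p under 0.05.

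Replicate numbers gave no pairing that held for all: same-numbered libraries correlated at 0.539, 0.08 and -0.243 in their deviations from the label means. The value of 0.539, for replicate 1 of each label, was the highest of any WT and Ptpro-KO pair. Pairs of different number ran from -0.614 to 0.408. The authors' names for both replicates 1 begin with LB and the other names with B, which the labels do not explain. With the replicate number as a block, 3 members were called lower (Krtdap, Lce1g and Sprr2i), with 10 processing genes, 0 regulators and 1 neighbouring gene.

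The sign of Flg and Sprr2a2 depended on the setting. Flg ranged from -1.34 to 2.06 with 1 library left out. It was at 0.04 with limma-voom and 0.04 with library totals, 2.06 without WT replicate 3, 0.47 without Ptpro-KO replicate 2 and 0.1 without replicate 3. Sprr2a2 ranged from -0.3 to 0.45 with 1 library left out and was at -0.17 with limma-voom, -0.16 with the replicate block, -0.13 without Ptpro-KO replicate 1 and -0.3 without replicate 3. Flg2, Sprr2a1 and Sprr2a3 also changed sign in at least 1 alternative, and the other 43 members tested kept theirs in every alternative that gave them a value. Library totals moved the median log2 fold change of all genes from 0.034 to 0.185. The cause of these changes was not tested, and fewer libraries leave fewer degrees of freedom.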
